A study of Homo sapiens with 4 samples.

Results

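The genes described here are 45 genes of mitosis and the spindle, chosen by gene symbol but with earlier results of these data known. All 45 were found among the 58302 Ensembl genes of the deposited tables. HepG2, a human hepatocellular carcinoma line of wild-type genotype, was grown with melatonin at 1 mM or with DMSO, the solvent control, for 24 h or for 48 h. Melatonin is the hormone of the pineal gland, and the study asked how it alters gene expression in liver cancer cells. A single mRNA-seq library represented each of the 4 conditions, named by treatment and time (DMSO 24 h, for example). No condition had a replicate, so that no difference below could be set against the spread between cultures and no p-value for a condition was computed. Each condition was a bulk culture of 1 cell line, in which fewer cells in mitosis and less RNA per dividing cell cannot be told apart. All 10 hepatocyte and hepatoma markers examined were expressed, with ALB (albumin) at 2717 to 3343 FPKM, AFP (alpha-fetoprotein) at 782 to 1902 FPKM and the liver transcription factor HNF4A at 34.9 to 59.5 FPKM. Of 8 markers of leukocytes, endothelium, fibroblasts and bile duct cells, only ACTA2 reached 1 FPKM.

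Mitosis is the step of the cell cycle in which condensed chromosomes are attached to the spindle by their kinetochores and pulled apart. Cyclin B and CDK1 start it together with the PLK1 and Aurora kinases, the spindle checkpoint holds it until every chromosome is attached, and the anaphase-promoting complex ends it by marking securin and cyclin B for destruction. Most mRNAs of these proteins are made late in the cell cycle, in G2 and mitosis, and are low in cells that have stopped dividing, which is why several of them serve as proliferation markers. Their promoters often hold a cell cycle genes homology region (CHR), read by the MuvB complexes with B-MYB and FOXM1, and CCAAT boxes, read by NF-Y.

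The promoters of 6 of the genes are shown because several of the results below turn on these genes, and because their windows differ in these letters. The sequences are from RefSeq (GRCh38.p14), 150 bases each, ending at the base before the annotated start and written 5′ to 3′ on the gene's strand. Capitals mark TTTGAA (a CHR form) and CCAAT or its reverse complement ATTGG. PLK1 lies at chr16:23678739-23678888, plus strand. CDC20 lies at chr1:43358831-43358980, plus strand. KIF20A lies at chr5:138178962-138179111, plus strand. CCNB2 lies at chr15:59104996-59105145, plus strand. MKI67 lies at chr10:128126424-128126573, minus strand. SPC24 lies at chr19:11155783-11155932, minus strand.
PLK1: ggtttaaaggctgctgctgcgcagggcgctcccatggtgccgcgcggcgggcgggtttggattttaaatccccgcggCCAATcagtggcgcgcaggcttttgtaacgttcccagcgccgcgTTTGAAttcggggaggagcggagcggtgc
CDC20: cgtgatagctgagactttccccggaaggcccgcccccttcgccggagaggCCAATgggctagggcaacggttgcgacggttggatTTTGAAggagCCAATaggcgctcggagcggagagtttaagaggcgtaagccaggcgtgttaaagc
KIF20A: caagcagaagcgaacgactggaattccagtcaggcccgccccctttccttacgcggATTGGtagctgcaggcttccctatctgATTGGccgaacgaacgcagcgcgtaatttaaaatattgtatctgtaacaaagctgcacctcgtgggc
CCNB2: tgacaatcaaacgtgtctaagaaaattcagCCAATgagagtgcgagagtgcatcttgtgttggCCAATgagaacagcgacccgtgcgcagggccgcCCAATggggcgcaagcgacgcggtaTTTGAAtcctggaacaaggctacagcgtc
MKI67: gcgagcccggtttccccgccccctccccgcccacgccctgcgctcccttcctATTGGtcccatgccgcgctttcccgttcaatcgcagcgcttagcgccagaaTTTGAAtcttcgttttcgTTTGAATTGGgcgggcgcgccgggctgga
SPC24: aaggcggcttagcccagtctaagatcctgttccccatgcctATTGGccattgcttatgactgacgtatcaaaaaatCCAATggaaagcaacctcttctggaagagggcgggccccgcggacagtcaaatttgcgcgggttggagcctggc
PLK1 and CCNB2 hold TTTGAA beginning at position -29, counted back from the start, and MKI67 holds it at -47 and -29, where the second copy overlaps an ATTGG. CDC20 holds it at -65, between CCAAT boxes at -100 and -55. The KIF20A and SPC24 windows hold CCAAT boxes and no TTTGAA.

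The motifs searched were TTTGAA and TTCGAA (CHR forms), CCAAT, and TTTNNCGC (a form of the E2F site), each on both strands, in windows of 250 bases before to 50 after each start. RefSeq promoters were found for 38 of the 45 genes, in 48 windows, and not matched were FOXM1, AURKA, BIRC5, BUB3, TTK, UBE2C and TPX2. Within 100 bases before to 50 after a start, 29 of the 38 genes (76.3%) held TTTGAA or TTCGAA, against 9.09% of the 27303 genes in the promoter table. Other CHR forms were not searched. A CCAAT box lay in the same stretch in 76.3% of the 38 genes and in 25.3% of all genes, and 23 of the 38 genes held both. The E2F letters were at 5.26% in these genes and 4.18% in all genes. The 9 genes with neither TTTGAA nor TTCGAA near the start were ASPM, AURKB, CCNB1, CENPE, KIF20A, KIF2C, PTTG1, SPC24 and TOP2A. At 48 h their median log2 fold change with melatonin was 0.51, and that of the 29 genes with either form was 0.44. From 24 h to 48 h with DMSO the medians were -1.07 and -1.07. A match of letters is a description of the sequence and was not tested as a binding site.

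The tables give FPKM, fragments per kilobase of gene length and scaled to a library size set by the authors. Since FPKM times length fell on whole multiples of 1 step per library for 100% of the values above 0, within a tolerance of 0.02, the reads behind each value could be recovered. Reads on genes numbered 21616676 to 23086025 per library, and mitochondrial genes took 19.96% of them in DMSO 24 h, 16.6% in melatonin 24 h, 9.77% in DMSO 48 h and 11.9% in melatonin 48 h. The values for each gene below are given in this order of libraries. Intervals are exact 95% intervals of the recovered reads and cover counting error only. A ratio is the plain ratio of FPKM, whereas a log2 fold change is that of FPKM + 1 and is smaller than the plain one at low levels. Comparisons took in each gene that reached 1 FPKM in either library, called tested genes below, which all 45 genes did in every comparison. A gene was counted as changed at 2-fold or more, that is, from 1 upward or from -1 downward on this log2 scale. When the libraries were rescaled to TPM, the median of all tested genes moved to 0.17 for melatonin against DMSO at 24 h, to 0.46 for 48 h against 24 h with DMSO and to 0.23 for the same with melatonin. Where a sign turned under TPM, this is said beside a named gene's value.

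The 45 genes were well expressed in HepG2 cells. Their median level was 13.9 FPKM in DMSO 24 h, 14.3 in melatonin 24 h, 6.62 in DMSO 48 h and 9.90 in melatonin 48 h. Together they held 0.442% (0.439 to 0.445%), 0.416% (0.413 to 0.419%), 0.191% (0.189 to 0.193%) and 0.274% (0.272 to 0.276%) of the reads on nuclear genes, a share that does not depend on the authors' library size. The share was lowest in DMSO 48 h, and that of melatonin 48 h lay between it and the 24 h libraries. By FPKM the level was highest in a 24 h library for all 45 genes, and for 43 of them both 24 h libraries stood above both 48 h libraries. This order depended on the scaling, since under TPM BUB3 and ECT2 were higher in DMSO 48 h than in DMSO 24 h. Of the 43 genes, CDK1, AURKB, CDC25B and SPC24 were among those higher in melatonin 48 h than in DMSO 24 h under TPM. Fewer than 43 genes thus kept the order under TPM, and their number was not counted. By FPKM, DMSO 48 h was the lowest library for 39 genes and melatonin 48 h for 5 genes, which were PLK1, AURKA, CDC20, KIF20A and ECT2, whereas BUB3 was lowest in melatonin 24 h. Under TPM the lowest library changed for ECT2, which was higher in melatonin 48 h than in melatonin 24 h. It also changed for BUB3, which was higher in melatonin 24 h than in DMSO 24 h. Library order was counted by FPKM and for the 45 genes only, so it has no share of all genes beside it. TOP2A and TPX2 were the most abundant in each library, at 40.0 to 94.6 FPKM and 31.8 to 86.5 FPKM. The lowest level in each library was between 1.77 and 4.003 FPKM, which was above the floor of 3 reads (0.135 to 0.163 FPKM for a gene of 1 kb).

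**Figure D1:**
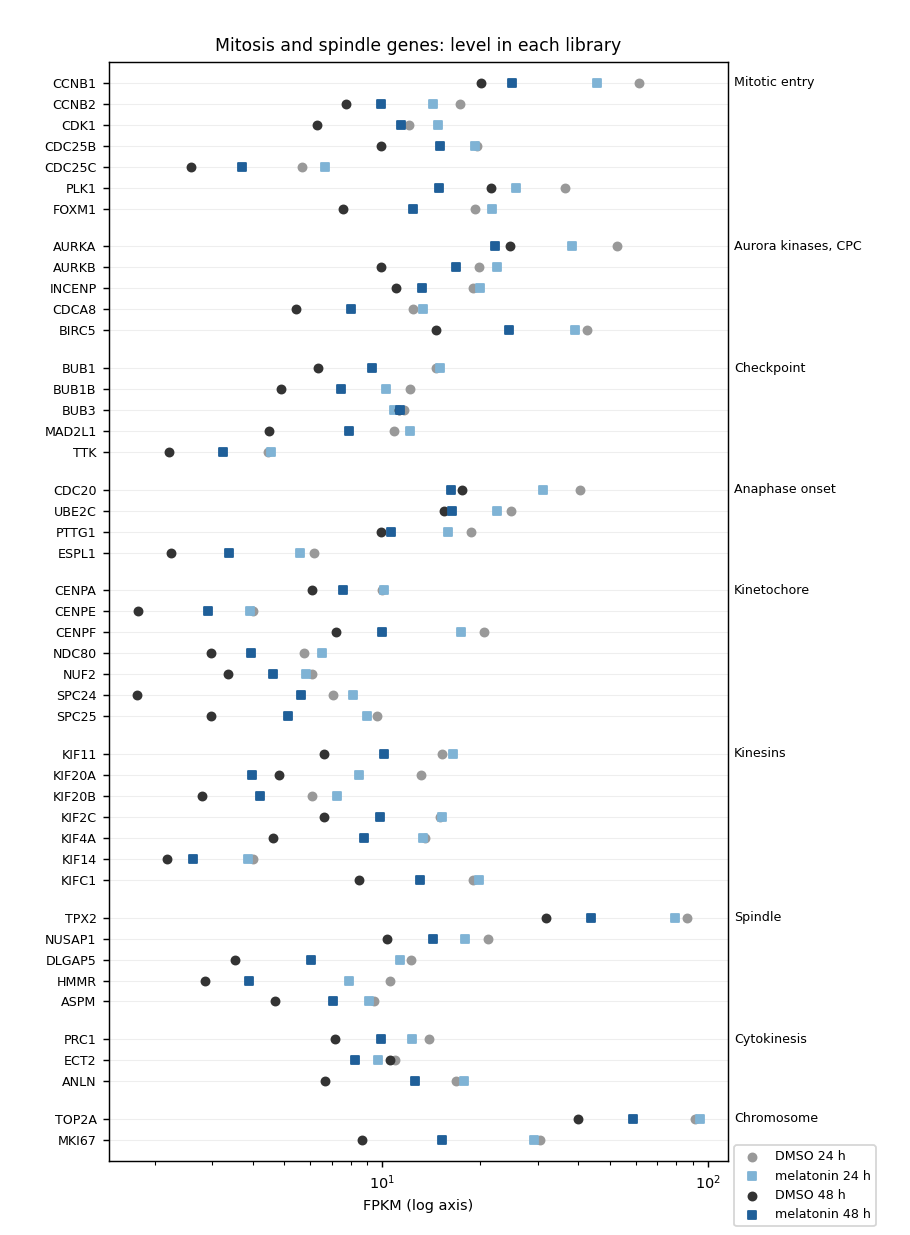
FPKM (log axis) of each of the 45 genes in the 4 libraries, grouped by role (CPC, chromosomal passenger complex), with 1 point per library and no error bars. For most genes the 24 h points lie to the right, melatonin 48 h next and DMSO 48 h at the left, whereas PLK1, AURKA, CDC20, KIF20A and ECT2 have melatonin 48 h at the left.

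Melatonin treatment for 24 h left the genes close to their DMSO level, with differences that depended on the gene. The median log2 fold change was -0.05 (0.02 for all tested genes), and under TPM it was 0.11, above 0 (0.17 for all tested genes), so that the difference from all genes was -0.07 and -0.06. No gene passed 2-fold in either direction, where 1.42% of all tested genes were higher and 2.93% lower. The interval of the ratio lay above 1 for 9 genes, against 28.2% of all tested genes, and below 1 for 18 genes, against 22.4%. Under TPM the counts turned to 21 above, against 41.6% of the genes then tested, and 7 below, against 10.5%, and the 7 were CCNB1, PLK1, AURKA, CDC20, CENPF, HMMR and KIF20A. The lowest ratio was that of KIF20A and the highest that of CDK1.

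Melatonin treatment for 48 h was accompanied by higher levels of most of the genes than in DMSO at the same time. The median log2 fold change was 0.45, against -0.02 over 13805 tested genes, and 40 of 45 genes were above 0 (39 under TPM, where BUB3 turned), against 47.5% of all tested genes. A single gene, SPC24, passed 2-fold upward, where 2.39% of all tested genes did, and none passed 2-fold downward, where 3.32% did. At this threshold the genes did not stand out, and the difference from all genes lay in smaller changes of common direction. The interval of the ratio lay above 1 for 37 genes, against 29.1% of all tested genes, and below 1 for PLK1, AURKA, KIF20A and ECT2, against 33.1%. The 37 genes were also the ones above 1 under TPM, against 21.5% of the genes then tested, and with library sizes from nuclear reads, against 34.6%, but with the latter only PLK1 and ECT2 stayed below 1, against 27.1%. Of the 18 genes whose interval lay below 1 at 24 h, 11 had it above 1 at 48 h (3 under TPM). How many of all tested genes did so was not counted. Among protein-coding genes alone, which are a closer background, 1.03% passed 2-fold upward and 1.36% downward, with a median of -0.01.

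**Figure D2:**
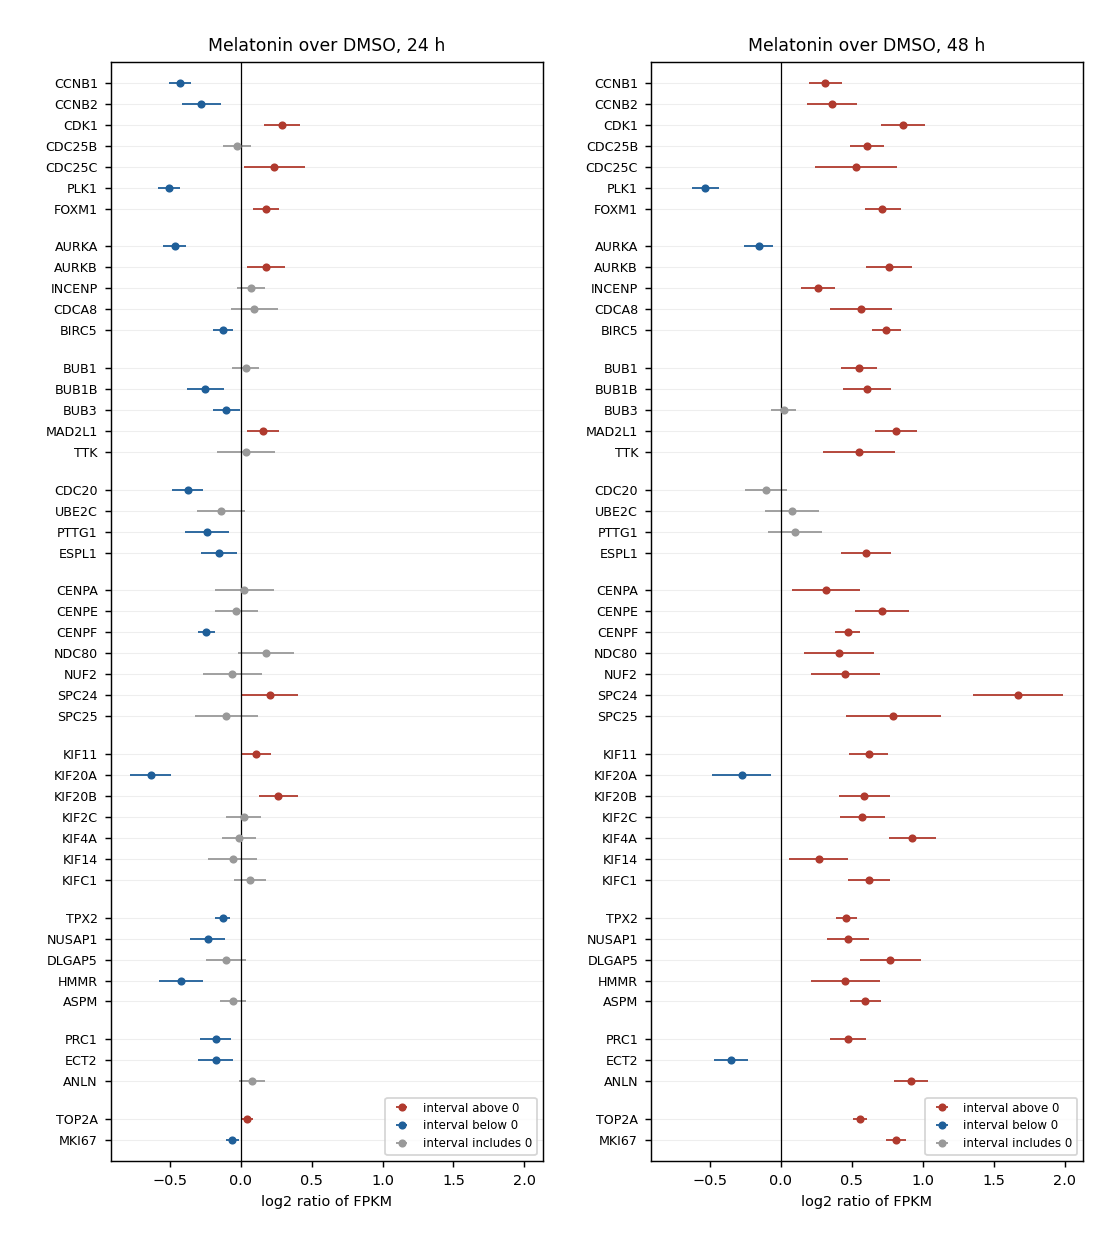
Log2 ratio of FPKM, melatonin over DMSO, for the 45 genes at 24 h (left) and 48 h (right), with bars for the exact 95% counting interval. At 24 h points lie on both sides of 0, of which 14 change side under TPM, and at 48 h 37 intervals lie above 0 and 4 below it.

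From 24 h to 48 h the genes were lower in both treatments, and more so with DMSO. With DMSO all 45 genes had a log2 fold change below 0, against 49.7% of all tested genes, with a median of -1.07, but under TPM BUB3 and ECT2 turned above 0 and 43 stayed below, against 21.7% of the genes then tested. By 2-fold or more 25 genes were lower, against 4.24%, and under TPM 7 genes were, against 3.91%. The interval of the ratio lay below 1 for 43 of them, against 32.1%. With melatonin 44 genes were below 0 (43 under TPM, where ECT2 turned), against 54.9% of all tested genes, with a median of -0.57, and none passed 2-fold downward, against 1.71%. Here the interval lay below 1 for 44 genes, against 32.8%. Under TPM the medians were -0.64 and -0.33, and relative to the median of all genes they were -1.10 and -0.57. These comparisons share their 48 h libraries with that of melatonin against DMSO at 48 h, so they are not separate evidence of it. The share of the 24 h level left at 48 h was 44.3% with DMSO and 65.0% with melatonin at the median, and it was larger with melatonin for 43 genes. PLK1 and ECT2 were the exceptions. Under TPM it was larger with melatonin for 39 genes, with BUB3, INCENP, NDC80 and UBE2C as further exceptions, and with nuclear reads for 44 genes. The number of all tested genes with a larger share left with melatonin was not counted. Their median log2 fold change from 24 h to 48 h was 0.004 with DMSO and -0.04 with melatonin. The share of mitochondrial reads fell from 24 h to 48 h in the same libraries, and its part in these differences was not tested.

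**Figure D3:**
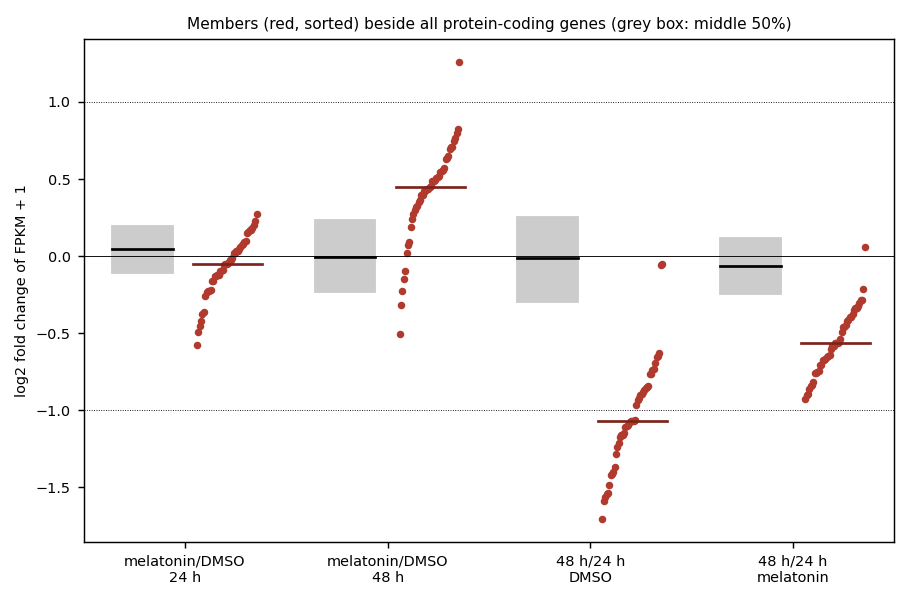
Log2 fold change (of FPKM + 1) of the 45 genes in each of the 4 comparisons (red points, sorted, with their median as a bar) beside all tested protein-coding genes (grey box, middle 50%, with their median). The genes have medians of -0.05, 0.45, -1.07 and -0.57 in the order drawn, and the first of these is above 0 under TPM.

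Among the genes of mitotic entry, CDK1 and its cyclins went apart at 24 h. CCNB1 (ENSG00000134057, chromosome 5 of hg38 from 69167010 to 69178245), cyclin B1, was at 61.3, 45.6, 20.1 and 24.98 FPKM, so that its mRNA was lower with melatonin at 24 h (ratio 0.744, 0.704 to 0.786) and higher at 48 h (1.24, 1.15 to 1.35). CCNB2, cyclin B2, whose promoter holds the CHR letters at the same place as that of PLK1, was at 17.4, 14.3, 7.72 and 9.90 FPKM, with ratios of 0.826 (0.750 to 0.909, an interval that included 1 under TPM) and 1.28. CDK1 (ENSG00000170312, chromosome 10 from 60778331 to 60794852), the kinase that these cyclins activate, was at 12.1, 14.8, 6.30 and 11.4 FPKM and was higher with melatonin at both times (1.22, 1.12 to 1.34, and 1.82, 1.63 to 2.02). There was thus less cyclin B1 mRNA per CDK1 mRNA with melatonin. Their FPKM ratio was 5.06 (4.69 to 5.47), 3.08 (2.87 to 3.31), 3.19 (2.88 to 3.54) and 2.19 (2.01 to 2.37), a ratio within a library that no scaling alters.

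PLK1 (ENSG00000166851, chromosome 16 from 23677656 to 23690367), the Polo-like kinase of centrosome maturation and mitotic entry, was the gene of this group with the lowest fold change at 48 h. It was at 36.5, 25.7, 21.6 and 14.9 FPKM, lower with melatonin than with DMSO at 24 h (ratio 0.704, 0.668 to 0.742) and by about as much at 48 h (0.691, 0.648 to 0.738). Its share of the 24 h level left at 48 h was 59.0% with DMSO and 58.0% with melatonin. FOXM1, the transcription factor of the G2 and M genes, was at 19.2, 21.8, 7.58 and 12.4 FPKM and was higher with melatonin at both times (1.13 and 1.64, 1.505 to 1.79). It overlaps RHNO1 and ITFG2 on the other strand, with 395, 648, 198 and 445 reads on RHNO1, and whether reads were counted by strand is not stated. CDC25B and CDC25C, the phosphatases that activate CDK1, had ratios of 1.52 and 1.44 at 48 h. The group of 7 genes had 6 intervals above 1 and 1 below it at 48 h.

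The Aurora kinases differed from each other. AURKA (ENSG00000087586, chromosome 20 from 56369389 to 56392337), the kinase of spindle poles, was at 52.7, 38.2, 24.7 and 22.1 FPKM, with ratios of 0.725 (0.686 to 0.766) at 24 h and 0.897 (0.834 to 0.964) at 48 h, the latter no longer below 1 by its interval with nuclear reads as library size. AURKB (ENSG00000178999, chromosome 17 from 8204733 to 8210600), the kinase of the chromosomal passenger complex, was at 19.9, 22.4, 9.93 and 16.8 FPKM, with ratios of 1.13 (1.03 to 1.24) and 1.69 (1.51 to 1.90). The ratio of AURKA to AURKB was 2.65 (2.45 to 2.87), 1.70 (1.58 to 1.83), 2.49 (2.25 to 2.76) and 1.32 (1.21 to 1.44), so that it was lower with melatonin at both times. BIRC5, survivin, a passenger subunit, was at 42.6, 39.1, 14.6 and 24.5 FPKM, with a ratio of 0.917 at 24 h (above 1 under TPM) and of 1.68 (1.56 to 1.80) at 48 h. The scaffold INCENP and the subunit CDCA8 (borealin) had ratios of 1.20 and 1.48 at 48 h. The subunits of the complex thus all had intervals above 1 at 48 h, and AURKA, which is not part of it, had its interval below 1.

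Of the spindle checkpoint, which delays anaphase until kinetochores are attached, 4 of 5 genes had intervals above 1 at 48 h. MAD2L1, the inhibitor that binds CDC20, was the highest of them and was at 10.9, 12.1, 4.50 and 7.89 FPKM (ratio 1.12 at 24 h and 1.75, 1.58 to 1.95, at 48 h). BUB1B, BUBR1, was at 12.2, 10.2, 4.89 and 7.45 FPKM, lower with melatonin at 24 h (0.841, 0.768 to 0.920, an interval that included 1 under TPM) and higher at 48 h (1.52, 1.36 to 1.71). BUB1 and TTK, the checkpoint kinases, both had a ratio of 1.46 at 48 h. BUB3, the partner of BUB1 and BUBR1, stood apart from the group. Its level was 11.7, 10.9, 11.2 and 11.4 FPKM, with 96.1% of the 24 h level at 48 h with DMSO (above the 24 h level under TPM), and it had a ratio of 1.013 (0.953 to 1.08) at 48 h, just below 1 under TPM. The ratio of BUB3 to BUB1 was 0.798, 0.725, 1.77 and 1.23, highest in DMSO 48 h.

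At anaphase onset, the 4 genes that act with or after the anaphase-promoting complex had a median of 0.08 on the log2 scale at 48 h, with 1 interval above 1 and none below. CDC20 (ENSG00000117399, chromosome 1 from 43358955 to 43363203), its mitotic activator, was at 40.4, 31.2, 17.5 and 16.3 FPKM, lower with melatonin at 24 h (ratio 0.772, 0.716 to 0.832), with an interval that included 1 at 48 h (0.930, 0.840 to 1.03) and lay below it under TPM. The ratio of CDC20 to its inhibitor MAD2L1 was 3.71 (3.44 to 4.01), 2.57 (2.38 to 2.77), 3.89 (3.49 to 4.35) and 2.06 (1.87 to 2.27), lower with melatonin at both times. UBE2C, its ubiquitin-conjugating enzyme, and PTTG1, securin, had ratios of 1.06 and 1.07 at 48 h with intervals that included 1. ESPL1, separase, which cuts cohesin, was the exception in the group at 6.18, 5.57, 2.24 and 3.38 FPKM. It had a ratio of 0.901 at 24 h, above 1 under TPM, and of 1.51 (1.34 to 1.71) at 48 h.

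All 7 kinetochore genes had intervals above 1 at 48 h. SPC24 (ENSG00000161888, chromosome 19 from 11131520 to 11155808), a subunit of the NDC80 complex that binds microtubules, was the only one of the 45 genes past 2-fold in a melatonin comparison. It was at 7.04, 8.11, 1.77 and 5.62 FPKM, from 367, 467, 110 and 354 reads, with ratios of 1.15 (1.00 to 1.32) at 24 h and 3.18 (2.56 to 3.97) at 48 h and a log2 fold change of 1.26 at 48 h. DMSO 48 h was the low library for it, with 25.1% of the 24 h level left, the lowest share among the 45 genes. The ratio of SPC24 to NDC80 was 1.22 (1.06 to 1.41), 1.24 (1.09 to 1.41), 0.594 (0.469 to 0.748) and 1.42 (1.22 to 1.66), so that these subunits of the same complex parted in DMSO 48 h. For NUF2 and NDC80, which form a dimer, the ratio was 1.05, 0.891, 1.13 and 1.17, each with an interval that included 1. SPC25 had a ratio of 1.73 (1.37 to 2.18) at 48 h. CENPF, a large outer kinetochore protein of G2 and M, was at 20.6, 17.4, 7.18 and 9.95 FPKM, with ratios of 0.846 (0.811 to 0.883) and 1.39 (1.31 to 1.47). The lowest fold change of the group was that of CENPA, the histone H3 variant of centromeres, at 9.94, 10.1, 6.07 and 7.56 FPKM with ratios of 1.02 and 1.25 (1.06 to 1.47). CENPA overlaps SLC35F6 on the same strand, with 852 to 1325 reads. CENPE, the kinetochore motor, had a ratio of 1.64 at 48 h.

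Among the kinesins, KIF4A and KIF20A lay at the ends. KIF4A, the chromokinesin of the central spindle, was at 13.5, 13.4, 4.62 and 8.77 FPKM, with ratios of 0.991 (above 1 under TPM) and 1.90 (1.70 to 2.13). KIF20A (ENSG00000112984, chromosome 5 from 138178719 to 138187715), MKLP2, which carries the passenger complex to the central spindle, was at 13.1, 8.46, 4.80 and 3.97 FPKM, with ratios of 0.644 (0.583 to 0.712) at 24 h and 0.827 (0.715 to 0.955) at 48 h. The interval at 48 h included 1 with nuclear reads as library size, and the gene overlaps BRD8 and CDC23 on the other strand. Both motors act at the central spindle, and their mRNAs lay on opposite sides of 1 at 48 h. KIF11, the motor that separates the poles, had ratios of 1.08 and 1.53 (1.39 to 1.69), and the ratio of KIF20A to KIF11 was 0.859, 0.514, 0.727 and 0.392. KIF20B, KIF2C, KIFC1 and KIF14 had ratios of 1.503, 1.49, 1.54 and 1.20 at 48 h, each with an interval above 1.

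All 5 spindle assembly genes had intervals above 1 at 48 h, after ratios below 1 at 24 h, of which those of TPX2, DLGAP5 and ASPM were above 1 under TPM. TPX2, the activator of AURKA at the spindle, was at 86.5, 79.3, 31.8 and 43.9 FPKM, with ratios of 0.917 (0.884 to 0.951) and 1.38 (1.31 to 1.45). The ratio of AURKA to TPX2 was 0.609, 0.482, 0.776 and 0.505, lower with melatonin at both times. DLGAP5, HURP, which stabilises kinetochore fibres, had the highest fold change of the group and was at 12.2, 11.4, 3.53 and 6.03 FPKM (0.930 and 1.71, 1.47 to 1.98). HMMR, a hyaluronan receptor that also binds spindle microtubules, had the lowest and was at 10.6, 7.92, 2.85 and 3.90 FPKM, with ratios of 0.749 (0.673 to 0.833) and 1.37 (1.16 to 1.62). It was lower with melatonin at 24 h under each scaling. NUSAP1, which bundles spindle microtubules, was at 21.1, 18.0, 10.3 and 14.3 FPKM, with ratios of 0.852 (0.783 to 0.928, an interval that included 1 under TPM) and 1.39 (1.26 to 1.54).

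The 3 cytokinesis genes went different ways. ANLN, anillin, the scaffold of the contractile ring, was at 16.8, 17.8, 6.67 and 12.6 FPKM, with ratios of 1.06 and 1.89 (1.74 to 2.05). ECT2 (ENSG00000114346, chromosome 3 from 172750682 to 172821474), the exchange factor that activates RhoA at the ring, was at 11.0, 9.72, 10.5 and 8.26 FPKM. Its ratios were 0.885 (0.814 to 0.964, an interval that included 1 under TPM) and 0.785 (0.722 to 0.853), and 95.9% of the 24 h level was left at 48 h with DMSO and 84.9% with melatonin. Under TPM, ECT2 was higher at 48 h than at 24 h in both treatments, and by FPKM it was the only one of the 45 genes whose difference between the times had an interval below 0 (-0.17 on the log2 scale). The ratio of ECT2 to ANLN was 0.653 (0.606 to 0.704), 0.547 (0.508 to 0.589), 1.58 (1.45 to 1.72) and 0.654 (0.604 to 0.708), with DMSO 48 h apart from the other libraries. PRC1, the microtubule bundler of the midzone, was at 13.9, 12.3, 7.16 and 9.93 FPKM, with ratios of 0.885 (0.821 to 0.953, an interval that included 1 under TPM) and 1.39 (1.27 to 1.51).

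The chromosome genes TOP2A and MKI67 both rank among proliferation markers. TOP2A (ENSG00000131747, chromosome 17 from 40388516 to 40417950), the topoisomerase that untangles sister chromatids, was at 91.5, 94.6, 40.0 and 59.0 FPKM, with ratios of 1.03 (1.01 to 1.06) and 1.47 (1.42 to 1.52). MKI67 (ENSG00000148773, chromosome 10 from 128096659 to 128126385), Ki-67, which coats mitotic chromosomes, was at 30.6, 29.3, 8.68 and 15.2 FPKM. Its ratios were 0.960 (0.929 to 0.991, above 1 under TPM) at 24 h and 1.75 (1.67 to 1.84) at 48 h. With DMSO it had the lowest log2 fold change from 24 h to 48 h among the 45 genes (-1.70, and -0.90 with melatonin). The ratio of PLK1 to TOP2A, which both belong to the late cell cycle, was 0.399 (0.384 to 0.415), 0.272 (0.260 to 0.284), 0.539 (0.513 to 0.566) and 0.253 (0.239 to 0.267), lower with melatonin at both times.

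**Figure D4:**
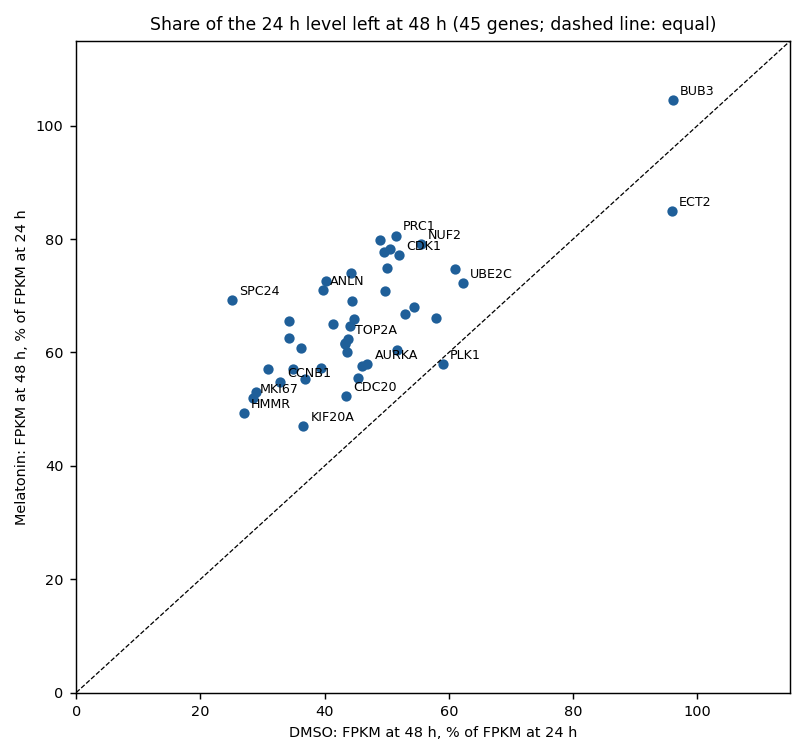
FPKM at 48 h as a percentage of FPKM at 24 h for the 45 genes, with DMSO on the horizontal and melatonin on the vertical axis, 1 point per gene. All but PLK1 and ECT2 lie above the dashed line of equality, with 39 above it under TPM, and BUB3 and ECT2 lie far to the right of the other genes.

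The makeup of the group within each library, which no scaling between libraries alters, was described by each gene's percentage of the summed FPKM of the 45 genes. The percentage was lower with melatonin than with DMSO at both times for 9 genes (AURKA, CCNB1, CCNB2, CDC20, ECT2, KIF20A, PLK1, PTTG1 and UBE2C) and higher at both times for 24 genes. These counts took the direction alone, without size or counting error. The percentage with melatonin was 0.986 times that with DMSO for UBE2C at 24 h, and 1.002 times for NDC80, among the 24, at 48 h. The percentages share a common total, so lower ones for some genes raise the rest. PLK1 held 3.99%, 3.05%, 5.33% and 2.78%, and it ranked 4 among the 45 genes in DMSO 48 h and 11 in melatonin 48 h. AURKA held 5.76%, 4.53%, 6.11% and 4.14%. SPC24 held 0.770%, 0.961%, 0.437% and 1.05%, with the lowest level of all 45 genes in DMSO 48 h. MKI67 held 3.34%, 3.47%, 2.15% and 2.84%, so that melatonin 48 h lay between DMSO 48 h and the 24 h libraries. BUB3 held 1.28%, 1.29%, 2.78% and 2.12%, and the percentages of BUB3 and ECT2 were higher in both 48 h libraries than at 24 h.

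**Figure D5:**
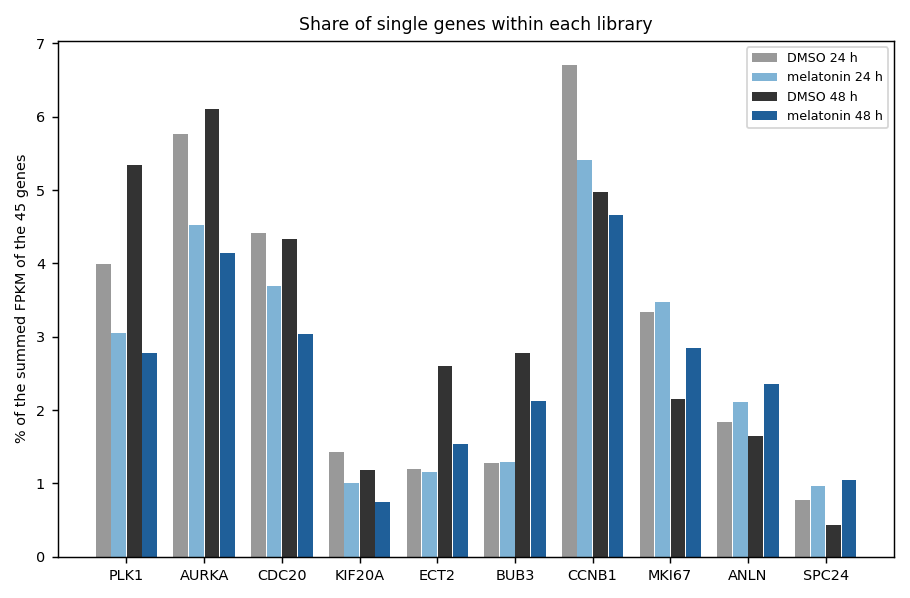
Percentage of the summed FPKM of the 45 genes held by 10 of them in each library, 1 bar per library from 0, with no error bars. PLK1, AURKA, CDC20, KIF20A and CCNB1 have lower bars with melatonin than with DMSO at both times (PLK1 3.05% against 3.99% at 24 h and 2.78% against 5.33% at 48 h), whereas SPC24 has a higher one.

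Other genes of the pathway were read from lists of genes that are not among the 45. Apart from RBL1, LIN54 and RBBP4, each gene named is the highest or lowest of its list at 48 h or past 2-fold in that comparison. The condensins, which compact mitotic chromosomes, were at a median of 0.49 (log2 fold change) at 48 h, with 8 of 8 intervals above 1 and none past 2-fold. They ranged from NCAPH2 at 17.5, 19.9, 13.8 and 15.6 FPKM (ratio 1.13, 1.03 to 1.23) to NCAPH at 13.6, 14.8, 6.55 and 12.5 FPKM (1.91, 1.71 to 2.14). The inner kinetochore and CENP genes, of which 21 of 22 were tested, had a median of 0.68, with 16 intervals above 1, 2 below and 2 genes past 2-fold. These were CENPM at 6.77, 9.98, 2.31 and 6.26 FPKM (2.71, 2.12 to 3.49) and CENPH at 6.26, 7.34, 2.13 and 5.52 FPKM (2.59, 2.06 to 3.27), and the lowest was CENPT at 5.52, 5.04, 7.42 and 5.11 FPKM (0.688). Of 34 other mitotic genes 29 had intervals above 1 at 48 h and none below, and their log2 fold changes ran from -0.12 for CKS2, a CDK1 subunit at 81.9 and 75.4 FPKM, to 0.99 for CKAP2L, a spindle protein at 1.69 and 4.34 FPKM.

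The anaphase-promoting complex and cohesin are the ubiquitin ligase of mitotic exit and the ring that holds sister chromatids. Of 15 subunits of the former 6 had intervals above 1 and 3 below at 48 h, with a median of 0.08, from CDC26 at 4.93 and 3.18 FPKM (ratio 0.645, 0.483 to 0.858) to ANAPC16 at 10.5 and 15.8 FPKM (1.51, 1.39 to 1.63). Cohesin had a median of 0.18, with 6 of 11 intervals above 1 and none below, from STAG1 (0.933) to SMC1A at 8.15 and 14.6 FPKM (1.80, 1.70 to 1.90). Of the MuvB and DREAM genes, whose complexes read CHR elements, 9 of 10 were tested, with 4 intervals above 1 and 2 below and a median of 0.20. MYBL2, B-MYB, was at 68.7, 71.2, 20.3 and 36.8 FPKM (1.82, 1.69 to 1.95), highest in melatonin 24 h and lowest in DMSO 48 h, and E2F4, the repressor subunit of DREAM, was at 20.3, 18.6, 25.002 and 18.5 FPKM (0.739, 0.690 to 0.791). MYBL2 was thus low and E2F4 high in DMSO 48 h, but other genes of the list did not follow E2F4. RBL1 (7.24, 8.93, 3.41 and 6.63 FPKM) and LIN54 (5.45, 5.14, 2.33 and 3.75 FPKM) were lowest in DMSO 48 h. RBBP4, which like E2F4 was lower with melatonin than with DMSO at 48 h, was at 11.8, 8.44, 11.7 and 9.01 FPKM.

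Genes of DNA replication, which belong to S phase and not to mitosis, were also described. Of 34 genes 32 had intervals above 1 at 48 h and 1 below, with a median log2 fold change of 0.63 and with RFC3, a subunit of the clamp loader, past 2-fold at 12.0, 17.5, 4.41 and 12.8 FPKM (ratio 2.89, 2.52 to 3.33). POLD4 was the lowest, at 1.76 and 1.08 FPKM with DMSO and melatonin for 48 h. From 24 h to 48 h with DMSO, 14 of the 34 were lower by 2-fold or more, with a median of -0.85. Values in the same direction were thus also found in genes outside mitosis, and a difference between the lists was not tested.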

How the data were processed

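Polyadenylated RNA of 1 HepG2 culture for each of 4 conditions was sequenced. The authors deposited FPKM per Ensembl gene with the gene length in bp. Their methods name MapSplice 2.0.1.6 on hg38 and Cufflinks, the submitters' processing notes list Bowtie2 2.0.6, TopHat2 2.0.9, Cufflinks 2.1.1 and Cuffdiff 2.1.1, and the annotation release, strand setting and library size are not given in the sources used here. From these values reads were recovered per gene and used for exact Poisson and binomial intervals. Log2 fold changes used a pseudocount of 1 over genes with 1 FPKM or more in either library. With 1 library per condition there was no test. Overlapping genes and named copies came from the coordinates in the files, which are those of hg38.

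The 45 genes, their 9 role groups and the other lists were chosen with earlier results of these data known. Genes given in full were CCNB1, CDK1, PLK1, AURKA, AURKB, TOP2A, MKI67 and FOXM1, the highest and lowest of each role group at 48 h, those past 2-fold with melatonin, and those whose intervals lay on opposite sides of 1 at 24 h and 48 h. Other genes were added as examples after their values were seen. Alternatives were a pseudocount of 0.1, no filter, a minimum of 5 FPKM, a 1.5-fold threshold, TPM, centring on the median and nuclear reads as library size. Calculations were tested on simulated data and used Python 3.11, numpy 2.4.6, pandas 2.3.3, scipy 1.17.1 and matplotlib 3.10.9.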

Additional observations from a re-analysis of the deposited data

Results flagged for a closer look

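For 11 of the 45 genes the counting interval of the ratio of melatonin to DMSO lay below 1 at 24 h and above 1 at 48 h. The share of all tested genes with this pattern was not counted, so the 11 have no background beside them. The log2 ratio at 48 h minus that at 24 h was 0.74 for CCNB1, 0.64 for CCNB2, 0.87 for BIRC5, 0.86 for BUB1B, 0.75 for ESPL1 and 0.71 for CENPF. It was 0.59 for TPX2, 0.71 for NUSAP1, 0.87 for HMMR, 0.65 for PRC1 and 0.87 for MKI67. With 1 culture per condition the difference between the times was not tested against the spread between cultures. Under TPM the intervals lay on opposite sides of 1 for 3 of them, CCNB1, CENPF and HMMR, and with nuclear reads as library size for all 11. No gene had its interval above 1 at 24 h and below 1 at 48 h.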

How the results depend on the processing

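With 1 library per condition, counting error is the only error that could be given. Over the counts and medians of the 45 genes, 82 values under an alternative stayed close to the reported one (a count within 1.5 times, a median within the typical counting interval of a gene, 0.12 to 0.15 on the log2 scale), 13 lay outside that and 1 turned its sign. The cause was not tested. Values with no filter were bound to stay the same, because all 45 genes had passed the filter, and the 82 include them. Under TPM the median log2 fold change with melatonin at 24 h was 0.11 in place of -0.05, and the medians from 24 h to 48 h were -0.64 with DMSO, with 7 genes lower by 2-fold in place of 25, and -0.33 with melatonin. At a 1.5-fold threshold 11 genes were higher with melatonin at 48 h in place of 1 (8.62% of all tested genes), and 43 were lower from 24 h to 48 h with DMSO (12.6%) and 20 with melatonin (6.05%). A pseudocount of 0.1 gave 2 genes lower by 2-fold with melatonin from 24 h to 48 h (3.34%). Chosen after seeing the data was the recount of intervals. Under TPM 21 lay above and 7 below 1 for melatonin at 24 h in place of 9 and 18, and 2 (BUB3 and ECT2) above 1 for 48 h against 24 h with DMSO (56.5% of the genes then tested) and 1 (BUB3) with melatonin (43.3%). With nuclear reads as library size 2 lay below 1 for melatonin at 48 h in place of 4, and 1 (BUB3) above 1 for 48 h against 24 h with melatonin (27.2%). Also chosen after seeing the data were protein-coding genes as background. No paired analysis was possible because each comparison sets 1 library against 1 and so holds no more than 1 pair.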
